A study of Mus musculus with 6 samples.

Results

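The lysosomal genes described here are 40 genes for lysosomal enzymes, membrane proteins, proton pump subunits, mucolipin channels and the transcription factors of the MiT/TFE family. They were taken by symbol from the 24421 genes of the deposited count table. All 40 were found and all 40 were among the 13803 genes with enough reads to be tested. By role they are 11 proteases, 7 glycosidases, 6 genes of lipid breakdown and export, 6 membrane proteins, 4 proton pump genes, 3 mucolipin channels and 3 MiT/TFE factors.

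RNA was sequenced from 3 libraries labelled as treated with DEK and 3 labelled as treated with vehicle. The product of Dek is a nuclear protein bound to chromatin, which can also be secreted, and the labels call the added protein exogenous DEK without a dose, a duration or a source. All 6 libraries carry the same labels otherwise, namely C57BL/6 mice, genotype Dek -/-, and femoral bone marrow from which magnetic columns had removed mature cells bearing lineage markers. The comparison therefore sets DEK against vehicle in cells that all lack the gene by label, and no library with an intact Dek gene was analysed here. The labels do not say whether libraries came from different mice, so the p-values measure the spread between these libraries, which may be technical.

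Lysosomes break down proteins, sugars and lipids with acid hydrolases, in a lumen that a membrane-bound V-type ATPase keeps acidic. Mucolipins are cation channels of endosomal and lysosomal membranes that release calcium from these compartments. The factors Tfeb, Tfe3 and Mitf bind the E-box CACGTG in promoters of many lysosomal genes and move to the nucleus when nutrient signalling through mTORC1 is low. In bone marrow, macrophages and osteoclasts are known for high lysosomal activity.

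Depth ran from 34875736 to 49128378 counts per library, and Dek itself had 712 to 869 counts in DEK and 672 to 863 in vehicle libraries, which count over the whole gene and so do not test the deletion. Replicate 3 of each group differed most from the rest. A list of 9 neutrophil marker genes in the table took 5.57% of the counts in DEK replicate 3 and 6.30% in vehicle replicate 3, against 0.617% to 0.834% in the other 4. Libraries with the same replicate number deviated together from their group means, so values within pairs of equal number are given beside values that ignore the numbers. Unequal numbers 1 and 2 did so too, so how these libraries match is uncertain. A log2 fold change is DEK minus vehicle throughout, CPM is the count relative to the TMM-scaled library size, and a gene was called at an adjusted p under 0.05.

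Mcoln3 carried the largest difference of the 40 genes. It was about 6-fold lower in DEK than in vehicle libraries, while Mcoln1 and most hydrolases, membrane proteins and pump genes lay within 1.5-fold of vehicle. Ignoring the replicate numbers, 0 of the 40 genes were called, and 0% of all genes tested were called either. Within pairs, Mcoln3, the protease gene Lgmn and the membrane protein gene Cd63 fell, which is 3 of 40, and 0 rose. Of all 13803 genes, that fit called 1.28%, with 0.413% called lower and 0.869% called higher.

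**Figure D1:**
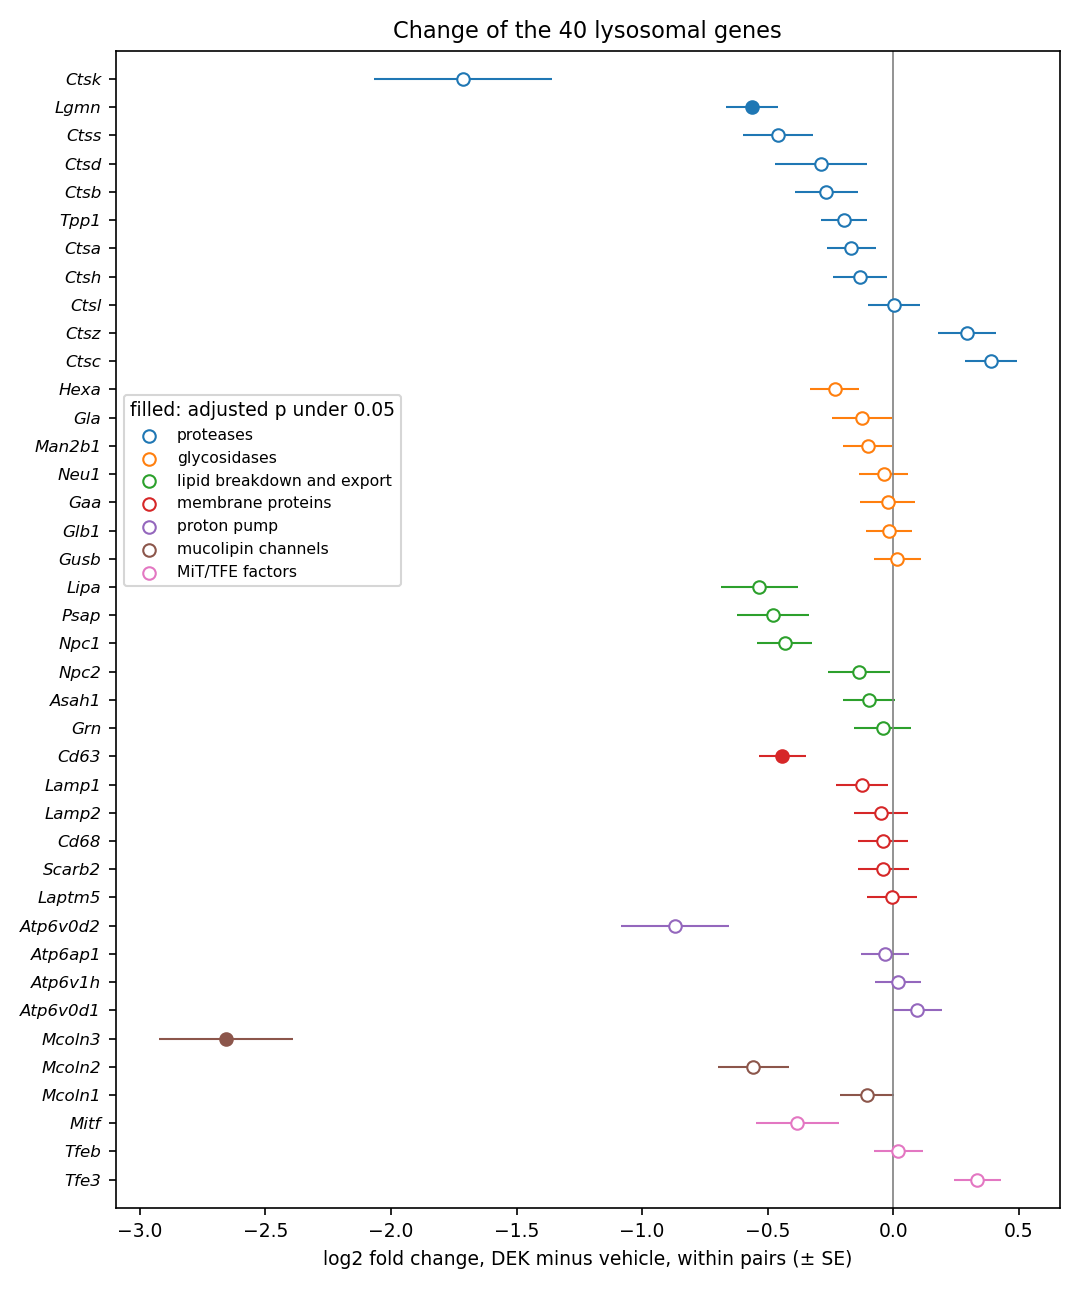
Log2 fold change of each of the 40 genes, DEK minus vehicle within pairs, on the horizontal axis, with bars of 1 standard error, colours for the roles and filled points for adjusted p under 0.05. The point for Mcoln3 lies at -2.66, that for Ctsk at -1.71, and the 3 filled points are Mcoln3, Lgmn and Cd63.

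The 3 mucolipin genes differ in place and level. Mcoln3 (chromosome 3, 146121791 to 146140646 on mm10) and Mcoln2 (chromosome 3, 146149833 to 146195512) are neighbours on the plus strand. Their outer exon bounds lie 9186 bases apart with 0 other genes of the table between them. Mcoln1 (chromosome 8, 3500519 to 3515231) lies elsewhere. The promoters of the 3 channels are shown with those of Lgmn and Cd63, the other genes called within pairs, because CACGTG is the letter string that MiT/TFE factors bind. The windows come from RefSeq on GRCm38.p6, the assembly also called mm10, and run from 250 bases before to 50 after an annotated start, 5′ to 3′ on the gene's strand. CACGTG is in capitals. Mcoln1 spans chr8:3500269-3500568 on the plus strand, Mcoln2 chr3:146149924-146150223 on the plus strand, Mcoln3 chr3:146121541-146121840 on the plus strand, Lgmn chr12:102439043-102439342 on the minus strand (1 of its 2 windows) and Cd63 chr10:128909095-128909394 on the plus strand.
Mcoln1: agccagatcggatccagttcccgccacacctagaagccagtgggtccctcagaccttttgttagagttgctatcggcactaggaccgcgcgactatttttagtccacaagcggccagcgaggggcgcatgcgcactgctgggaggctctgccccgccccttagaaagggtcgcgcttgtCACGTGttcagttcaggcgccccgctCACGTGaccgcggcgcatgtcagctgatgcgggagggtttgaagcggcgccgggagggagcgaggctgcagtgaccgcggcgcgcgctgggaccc
Mcoln2: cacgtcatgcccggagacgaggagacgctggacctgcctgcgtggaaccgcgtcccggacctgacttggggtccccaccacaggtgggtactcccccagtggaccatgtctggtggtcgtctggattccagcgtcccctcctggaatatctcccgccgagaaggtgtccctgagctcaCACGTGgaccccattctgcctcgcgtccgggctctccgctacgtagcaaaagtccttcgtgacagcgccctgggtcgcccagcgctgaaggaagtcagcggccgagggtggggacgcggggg
Mcoln3: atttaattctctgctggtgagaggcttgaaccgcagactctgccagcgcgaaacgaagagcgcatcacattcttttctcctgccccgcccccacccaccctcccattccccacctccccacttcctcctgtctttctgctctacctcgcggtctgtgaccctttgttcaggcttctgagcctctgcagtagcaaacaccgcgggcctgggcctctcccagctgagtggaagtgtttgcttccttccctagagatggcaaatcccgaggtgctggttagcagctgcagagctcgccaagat
Lgmn: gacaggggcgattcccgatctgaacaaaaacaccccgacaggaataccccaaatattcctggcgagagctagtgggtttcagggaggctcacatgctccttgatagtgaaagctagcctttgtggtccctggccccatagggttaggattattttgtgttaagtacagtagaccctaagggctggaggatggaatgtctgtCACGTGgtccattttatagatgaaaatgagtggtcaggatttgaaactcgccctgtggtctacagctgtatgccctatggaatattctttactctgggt
Cd63: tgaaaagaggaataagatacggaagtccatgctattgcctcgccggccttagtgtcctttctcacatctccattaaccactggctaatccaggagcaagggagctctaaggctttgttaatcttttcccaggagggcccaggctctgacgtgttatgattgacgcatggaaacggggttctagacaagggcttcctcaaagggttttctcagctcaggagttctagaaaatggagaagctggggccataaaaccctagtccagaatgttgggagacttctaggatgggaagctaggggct

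The Mcoln1 window holds 2 copies of CACGTG, the Mcoln2 and Lgmn windows shown hold 1 each, and those of Mcoln3 and Cd63 hold 0. The second Lgmn window, chr12:102439679-102439978 at the outer start of the gene, holds 0. The windows of Mcoln2 and Cd63, the only ones matched for these genes, lie wholly within the gene bounds. Their outer starts were therefore not searched. CACGTG reads the same on both strands. RefSeq windows were matched by symbol for 34 of the 40 genes, 42 windows in all. The string was in 11 of the 42, which is 26.2%, against 7.15% of all 32851 promoters in the RefSeq table and 9.61% of the 13336 promoters of genes tested. The longer string TCACGTG, searched on both strands and containing CACGTG, was in 9 of the 42 windows, 21.4%, against 3.77% of all promoters and 5.64% of those of genes tested. The full palindromic CLEAR element, which contains both, was in 0 of the 42 windows, in 0.326% of all promoters and in 0.660% of those of genes tested. These are matches of letters in a short window.

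Genes with and without the string can be set side by side. Within pairs, the median log2 fold change was -0.12 for the 11 genes with a match, of which 1 was called lower (Lgmn), and -0.05 for the 23 without, of which 2 were called lower (Mcoln3 and Cd63). The difference between these medians was not tested.

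Mcoln3 had 37, 36 and 25 counts in DEK libraries 1, 2 and 3, against 203, 267 and 101 counts in vehicle libraries 1, 2 and 3. On the CPM scale these are 0.826, 0.709 and 0.578 in DEK, against 4.12, 6.68 and 3.01 in vehicle. Every DEK library was below every vehicle library, and the 3 DEK values lay closer together than the 3 vehicle values. Mean CPM was 0.705 ± 0.124 in DEK and 4.6 ± 1.9 in vehicle (SD over 3 libraries each). Mcoln3 encodes mucolipin 3, a channel known in mice from mutations that affect inner ear hair cells and pigment cells.

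Ignoring the replicate numbers, the log2 fold change of Mcoln3 was -2.70 ± 0.38 (SE), with an unadjusted p of 0.000262 and an adjusted p of 0.450 by edgeR's quasi-likelihood test with Benjamini-Hochberg adjustment. Within pairs it was -2.66 ± 0.27, a level 6.31-fold lower in DEK, with an adjusted p of 0.00094 and a 95% interval of -3.24 to -2.08. In that fit Mcoln3 ranked 4th of 13803 genes by p and 6th from the lowest by log2 fold change. Without the libraries numbered 2, Mcoln3 was not called within pairs, at a log2 fold change of -2.33 and an adjusted p of 0.227. In that fit 0 genes in all were called. Without those numbered 1 the adjusted p of Mcoln3 was 0.00197. Over all alternatives its log2 fold change kept between -2.93 and -2.33.

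Mcoln1, the widely expressed mucolipin whose loss causes mucolipidosis type IV in people, had 24.2, 28.8 and 30.6 CPM in DEK, against 27.4, 29.9 and 32.3 CPM in vehicle. These ranges overlapped. Its log2 fold change within pairs was -0.10 ± 0.11 with a 95% interval of -0.34 to 0.13 and an adjusted p of 0.765. Mcoln2, a mucolipin found mainly in immune cells, had 10.4, 10.1 and 12.5 CPM in DEK, against 17.6, 15.98 and 14.8 CPM in vehicle. Its groups did not overlap, but the difference was small in pair 3. The log2 fold change within pairs was -0.56 ± 0.14, with a 95% interval of -0.86 to -0.25 and an adjusted p of 0.0912, above the threshold. Mcoln2 passed within pairs under 2 alternatives, at an adjusted p of 0.0318 without a filter on low counts and 0.0012 without the libraries numbered 3. The latter fit has 2 pairs, and very small p from it are unreliable. Over all alternatives the adjusted p of Mcoln2 reached 1.00.

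The ratios between the mucolipins were set side by side in the 2 groups. The log2 ratio of Mcoln3 to Mcoln1 CPM averaged -5.22 ± 0.41 in DEK and -2.76 ± 0.63 in vehicle libraries (SD, n = 3 each; exact two-sided permutation p = 0.1, the smallest that 3 libraries against 3 allow). For Mcoln3 to Mcoln2 it averaged -3.89 ± 0.39 in DEK and -1.87 ± 0.55 in vehicle, and for Mcoln2 to Mcoln1 -1.34 ± 0.16 in DEK and -0.89 ± 0.24 in vehicle (SD, n = 3 each; exact permutation p = 0.1 for both ratios). Each of the 3 ratios separated the groups fully, but a test of 3 against 3 libraries cannot pass 0.05.

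**Figure D2:**
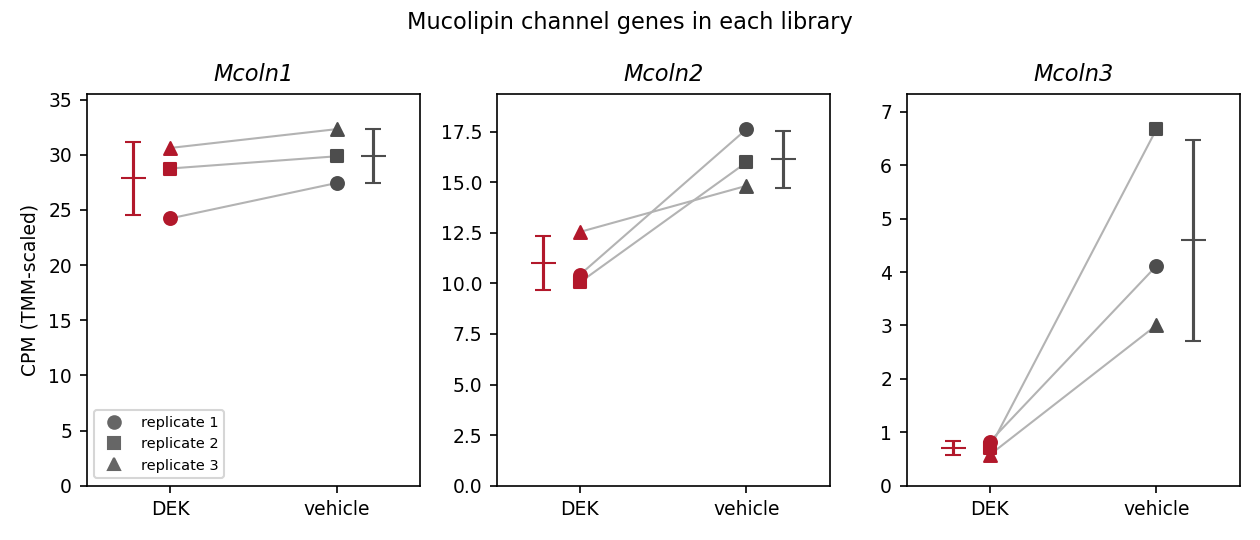
CPM of Mcoln1, Mcoln2 and Mcoln3 in each library (vertical axes start at 0 and differ in scale), DEK left and vehicle right, with a marker shape per replicate number, grey lines joining equal numbers, and group means with SD beside the points. Mcoln3 lies at 0.578 to 0.826 in DEK and 3.01 to 6.68 in vehicle, while the Mcoln1 groups overlap.

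Within each pair, none of the other 39 genes had a difference as low as Mcoln3. The log2 CPM difference of Mcoln3 was -2.26 in pair 1, -3.15 in pair 2 and -2.29 in pair 3. The next lowest of the 40 was Ctsk at -2.21 in pair 1 and -2.14 in pair 2, and Atp6v0d2 at -1.18 in pair 3. The median of the other 39 genes was -0.18 in pair 1, -0.26 in pair 2 and 0.03 in pair 3. Of all 13803 genes, 38 lay lower than Mcoln3 in pair 1, 11 in pair 2 and 12 in pair 3.

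Mcoln3 thus did not move alone in direction, but no other gene of the 40 matched its size in all pairs. Of the 40 genes, 32 had a log2 fold change below 0, against 49.5% of all genes tested. The median was -0.12 ignoring the numbers and -0.11 within pairs, against 0.00 for all genes in both fits. By pair, the median of the 40 was -0.19 in pair 1, -0.27 in pair 2 and 0.02 in pair 3, so the lean to lower values was absent in pair 3. In all 3 pairs, 14 of the 40 genes were lower in DEK and 2 were higher (Ctsc and Tfe3), where 17.9% of all genes were lower and 16.3% higher. The DEK group lay wholly below the vehicle group for 5 genes (Lgmn, Tpp1, Cd63, Mcoln2 and Mcoln3) and wholly above it for 1 (Ctsc), where 3.41% of all genes lay below and 3.78% above, 7.19% in all. At an unadjusted p under 0.05 ignoring the numbers, 6 of the 40 were lower and 0 higher, against 2.61% of all genes in either direction, 1.12% lower and 1.49% higher. DESeq2 ignoring the numbers called 1 of the 40, Mcoln3, where 0.420% of all genes were called. DESeq2 within pairs called 9 of the 40, where 2.51% of all genes were called. These were Ctsc, which was higher, and Ctsk, Lgmn, Lipa, Psap, Npc1, Cd63, Atp6v0d2 and Mcoln3, which were lower. Without a filter on low counts, edgeR within pairs called 7, where 1.93% of all genes were called, namely Ctsc higher and Lgmn, Npc1, Cd63, Atp6v0d2, Mcoln2 and Mcoln3 lower.

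**Figure D3:**
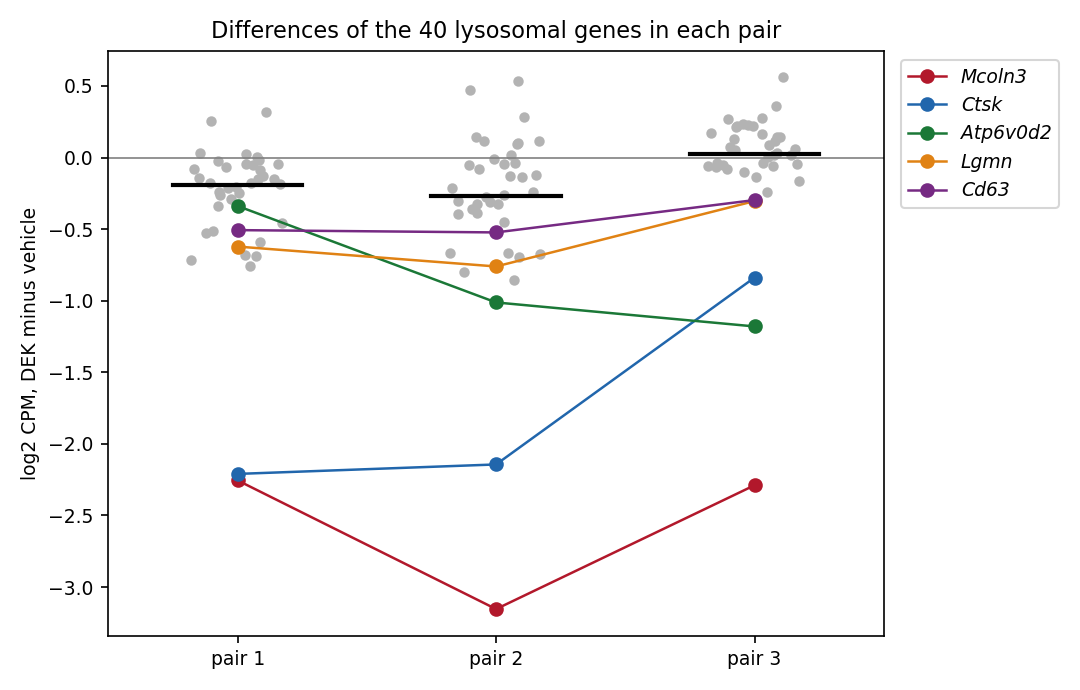
Log2 CPM difference, DEK minus vehicle, in each of the 3 pairs, with 5 named genes as coloured lines, the other 35 as grey points and the median of all 40 as a black bar. Mcoln3 is the lowest line in every pair at -2.26, -3.15 and -2.29, and the bars lie at -0.19, -0.27 and 0.02.

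The number of called genes depended on which libraries were included. With both libraries numbered 3 left out and the numbers ignored, edgeR called 7 of the 40, all lower, where 0.543% of all genes were. This alternative was added once the data had been seen. The 7 were Ctsk, Lgmn, Lipa, Psap, Npc1, Cd63 and Mcoln3. Fits within pairs that leave out 1 pair have little left to estimate the spread, so their very small p are unreliable. Within pairs and without the libraries numbered 3, 11 of the 40 were called, all lower, where 2.27% of all genes were. These 11 were the 7 just named with Ctsd, Ctss, Mcoln2 and Mitf. Within pairs and without those numbered 2, 0 of the 40 and 0 genes in all were called. Without those numbered 1, 2 of the 40 were called (Mcoln3 and Atp6v0d2), where 0.266% of all genes were called lower. Vehicle replicate 3 had lower values than vehicle replicates 1 and 2 for 32 of the 40 genes, with a median log2 difference of -0.28, against -0.01 for all genes. DEK replicate 3 was lower than DEK replicates 1 and 2 for 20 of the 40, with a median of -0.01.

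Of the MiT/TFE factors, 0 of 3 passed in either fit. Mitf, the factor best known in pigment cells, mast cells and osteoclasts, had 20.8, 16.6 and 26.4 CPM in DEK, against 31.3, 26.9 and 23.8 CPM in vehicle. It was lower in DEK in pairs 1 and 2 and higher in pair 3, with a log2 fold change within pairs of -0.38 ± 0.17 (95% interval -0.76 to -0.01) and an adjusted p of 0.424. Tfeb, the factor most studied as a regulator of lysosomal genes, had 54.9, 69.5 and 69.3 CPM in DEK, against 60.8, 65.2 and 64.1 CPM in vehicle. Its log2 fold change within pairs was 0.02 ± 0.10, with a 95% interval of -0.19 to 0.23 and an adjusted p of 0.968. Tfe3, which acts on many of the same promoters, had 112.3, 131.6 and 143.6 CPM in DEK, against 94.1, 94.8 and 118.9 CPM in vehicle. It was higher in DEK in 3 of 3 pairs, but the groups overlapped and the adjusted p within pairs was 0.137 for a log2 fold change of 0.33 ± 0.09. RNA levels do not show where these factors sit in the cell.

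Of the 11 proteases, 1 fell within pairs and 0 rose, with a median of -0.20. Lgmn (chromosome 12, 102394098 to 102439697, minus strand) encodes legumain, an endopeptidase that cuts after asparagine. It had 109.5, 110.6 and 140.3 CPM in DEK, against 168.5, 187.5 and 173.2 CPM in vehicle. All DEK values were below all vehicle values, and DEK replicate 3 was the nearest to vehicle. Lgmn was 1.48-fold lower in DEK within pairs (log2 -0.56 ± 0.10, adjusted p 0.0212), and its adjusted p ignoring the numbers was 1.00. Within pairs the log2 fold change was -0.53 (adjusted p 0.126) without the libraries numbered 1 and -0.45 (adjusted p 0.735) without those numbered 2, a fit in which 0 genes in all were called.

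Ctsc encodes cathepsin C, which activates the serine proteases of granules in neutrophils, mast cells and cytotoxic lymphocytes. It had 972.5, 1053 and 1387 CPM in DEK, against 780.8, 863.2 and 940.2 CPM in vehicle. It was the 1 gene of the 40 whose DEK values all lay above the vehicle values, and at 0.39 ± 0.10 within pairs its adjusted p was 0.111. Ctsk encodes cathepsin K, the main collagen-degrading protease of osteoclasts, and is named here because its values stood out when seen. It had 4.04, 6.37 and 22.2 CPM in DEK, against 18.9, 28.3 and 39.7 CPM in vehicle. The highest DEK value lay above the lowest vehicle value, and replicate 3 was the highest in both groups. Its log2 fold change within pairs was -1.71 ± 0.35 with an adjusted p of 0.227. Ignoring the numbers it was -1.41 with an adjusted p of 1.00, and -2.18 with an adjusted p of 0.00248 when both libraries numbered 3 were also left out. The other 8 proteases lay between -0.46 (Ctss) and 0.29 (Ctsz) within pairs. Counting did not use strand, so the values of Ctsa, Ctsb and Ctsz, whose exons overlap genes on the opposite strand, are uncertain.

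Of the 7 glycosidases, 0 passed, and their median within pairs was -0.04, the range running from -0.23 to 0.02. Hexa encodes the alpha subunit of beta-hexosaminidase, whose loss causes Tay-Sachs disease. It had 500.3, 526.3 and 471.6 CPM in DEK, against 593.9, 657.9 and 517.3 CPM in vehicle. It was lower in DEK in 3 of 3 pairs with overlapping groups, at -0.23 ± 0.10 and an adjusted p of 0.362. Gla, which encodes alpha-galactosidase A, the enzyme missing in Fabry disease, had 50.9, 51.1 and 59.7 CPM in DEK, against 62.3, 63.5 and 50.9 CPM in vehicle. The sign turned in pair 3, and the adjusted p within pairs was 0.740. Glb1 shares exons with Tmppe on the same strand, so its value is uncertain.

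Of the 6 genes of lipid breakdown and export, 0 passed within pairs, although all 6 lay below 0 with a median of -0.28. Psap encodes prosaposin, the precursor of the saposins that help hydrolases reach sphingolipids, and was the most abundant of the 40 genes per kilobase of exon. It took 0.570%, 0.625% and 0.519% of all counts in DEK, against 0.896%, 1.008% and 0.578% in vehicle libraries. The DEK values and vehicle replicate 3 lay together, below vehicle replicates 1 and 2 (exact two-sided permutation p = 0.2). Within each pair the DEK share was the lower one. The log2 fold change of Psap within pairs was -0.48 ± 0.14 with an adjusted p of 0.178. Ignoring the numbers it was -0.51 with an adjusted p of 1.00, and -0.69 with an adjusted p of 0.0366 when both libraries numbered 3 were also left out.

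Npc1 encodes the membrane protein that moves cholesterol out of the lysosome. It had 172.7, 163.6 and 148.6 CPM in DEK, against 237.4, 261.1 and 166.4 CPM in vehicle. It was lower in DEK in 3 of 3 pairs, at -0.43 ± 0.11 and an adjusted p of 0.0907, and its exons overlap 3110002H16Rik on the opposite strand, so the value is uncertain. The others of this role were Lipa at -0.53, Npc2 at -0.14, Asah1 at -0.10 and Grn at -0.04 within pairs. Lipa, the lysosomal acid lipase gene, was 1.29 log2 units lower in vehicle replicate 3 than in vehicle replicates 1 and 2.

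Of the 6 membrane proteins, 1 fell within pairs and 0 rose, with a median of -0.05. Cd63 (chromosome 10, 128908919 to 128912818) encodes a tetraspanin of late endosomes, lysosomes and secretory granules. It had 184.8, 179.5 and 163.8 CPM in DEK, against 262.7, 257.9 and 201.2 CPM in vehicle. The groups did not overlap, and replicate 3 was the lowest in both. Cd63 was 1.36-fold lower in DEK within pairs (log2 -0.44 ± 0.09, adjusted p 0.0415), and its adjusted p ignoring the numbers was 1.00. Within pairs the log2 fold change was -0.41 (adjusted p 0.199) without the libraries numbered 1 and -0.39 (adjusted p 0.778) without those numbered 2. Lamp1, a main glycoprotein of the lysosomal membrane, had 1196, 1221 and 1095 CPM in DEK, against 1324, 1443 and 1082 CPM in vehicle. These groups overlapped, with a log2 fold change within pairs of -0.12 ± 0.10 (95% interval -0.35 to 0.10) and an adjusted p of 0.704. Lamp2, Cd68, Scarb2 and Laptm5 lay between -0.05 and -0.01.

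Of the 4 proton pump genes, 0 passed within pairs. Atp6v0d2 encodes a form of the d subunit that is high in osteoclasts and some macrophages. It had 2.19, 1.58 and 4.74 CPM in DEK, against 2.78, 3.23 and 10.8 CPM in vehicle. It was lower in DEK in 3 of 3 pairs and highest in replicate 3 of both groups, at -0.87 ± 0.21 and an adjusted p of 0.0821 within pairs. Without the libraries numbered 1 that adjusted p was 0.0414. The value depended on the libraries numbered 3. Ignoring the numbers, the gene was 1.97-fold lower in DEK. It was 1.06-fold lower without vehicle replicate 3 and 2.98-fold lower without DEK replicate 3. With both libraries numbered 3 left out it was 1.59-fold lower. Atp6v0d1, the widely expressed form of the same subunit, had 233.3, 273.7 and 287.3 CPM in DEK, against 243.6, 252.6 and 244.3 CPM in vehicle. Its groups overlapped, at 0.10 ± 0.10 with a 95% interval of -0.11 to 0.31 and an adjusted p of 0.758. Atp6v1h and Atp6ap1 lay at 0.02 and -0.03.

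**Figure D4:**
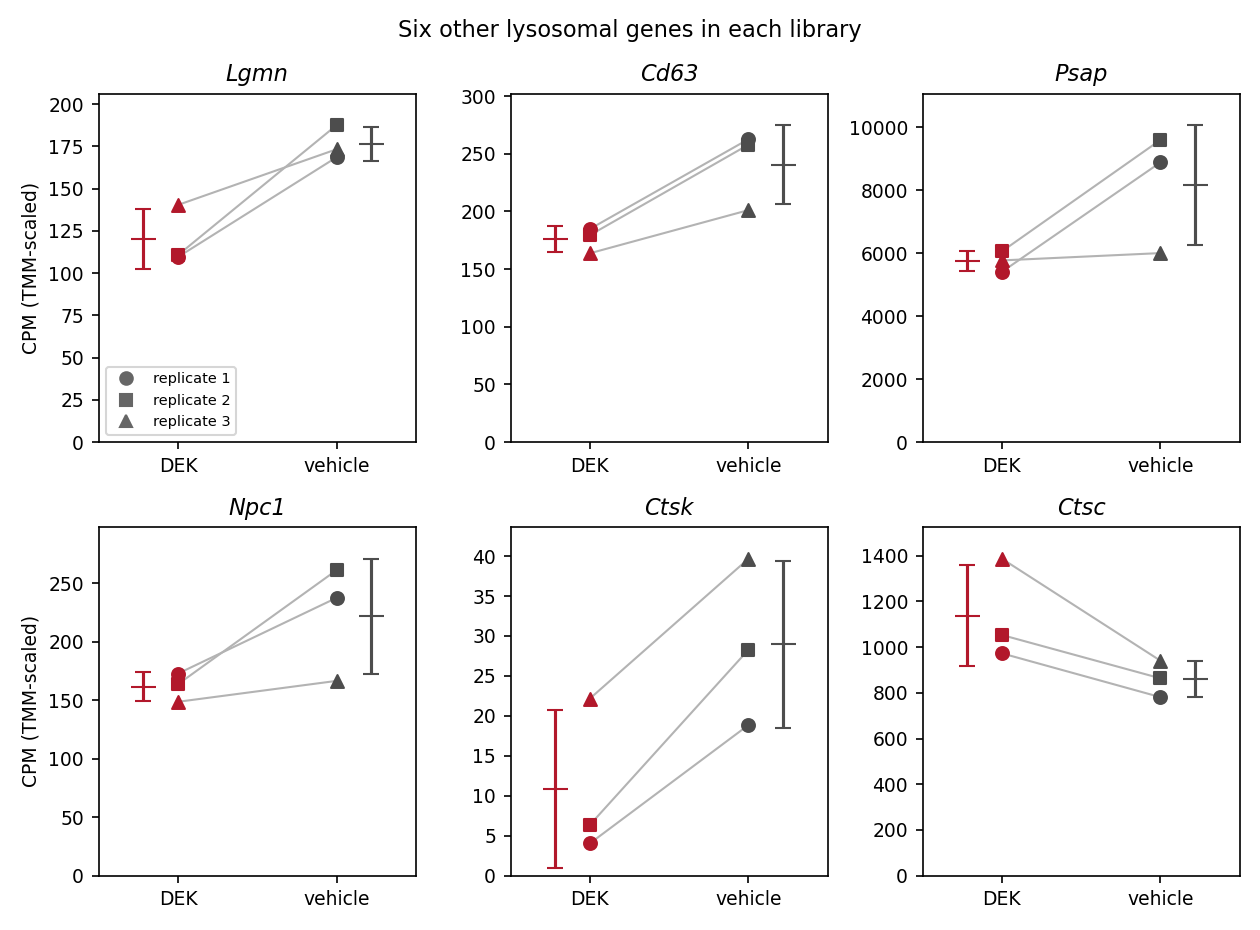
CPM of 6 further lysosomal genes in each library (vertical axes start at 0 and differ in scale), DEK left and vehicle right, with a marker shape per replicate number, grey lines joining equal numbers, and group means with SD beside the points. Lgmn and Cd63 show groups that do not overlap, and Ctsk shows replicate 3 as the highest of both groups.

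Levels across the 40 genes spanned a wide range. Per kilobase of exon, Psap averaged 2101 CPM in DEK and 2985 CPM in vehicle libraries, Ctss 1010 CPM in DEK and 1342 CPM in vehicle, and Ctsd 706.7 CPM in DEK and 845.5 CPM in vehicle. At the low end, Atp6v0d2 averaged 1.13 CPM per kilobase in DEK and 2.24 in vehicle, and Mcoln3 0.412 in DEK and 2.69 in vehicle. Together the 40 genes took 2.29%, 2.43% and 2.14% of all counts in DEK, against 2.84%, 3.18% and 2.20% in vehicle. The DEK share was the lower one in 3 of 3 pairs, by little in pair 3. Vehicle replicate 3 lay with the DEK libraries. Ignoring the numbers, the means of 2.29 ± 0.142% in DEK and 2.74 ± 0.50% in vehicle were not told apart by the test (SD, n = 3 each; exact two-sided permutation p = 0.3). The 95% Wilson intervals of these shares, which reflect counting error alone, had half-widths of at most 0.0056 percentage points.

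**Figure D5:**
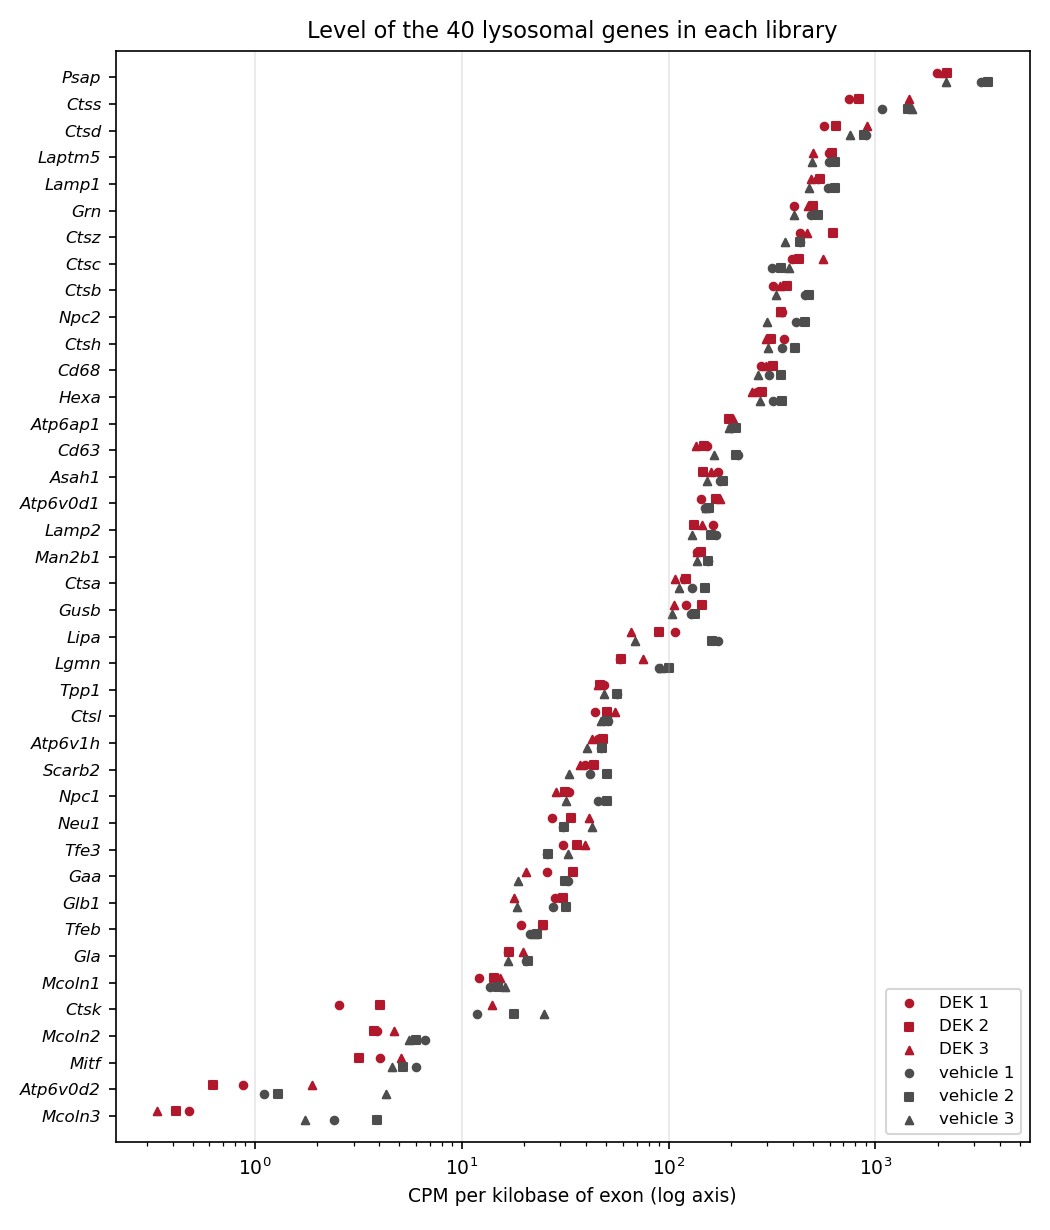
Level of each of the 40 genes in each library as CPM per kilobase of exon on a log axis, with DEK above vehicle for each gene and a marker shape per replicate number. Group means are not drawn. By these means Psap is the highest at about 2101 in DEK and 2985 in vehicle, and the lowest are Mcoln3 in DEK at 0.412 and Atp6v0d2 in vehicle at 2.24.

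Other genes of the same pathways were taken from further lists. The further lists held 118 tested genes for other pump subunits, other hydrolases, lysosomal transporters and channels, MiT/TFE partners with nutrient sensing, and autophagy. Ignoring the numbers 0 of 118 were called, and within pairs 1 rose and 0 fell, where 0.869% of all genes rose and 0.413% fell. That gene was Slc15a3, a lysosomal transporter of histidine and peptides. It had 96.9, 142.6 and 212.5 CPM in DEK, against 79.6, 75.2 and 127.5 CPM in vehicle, and was 1.57-fold higher within pairs (log2 0.65 ± 0.12, adjusted p 0.0321). Its groups overlapped, and its adjusted p ignoring the numbers was 1.00.

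The median log2 fold change within pairs was 0.00 for the 13 other pump subunits and -0.09 for the 34 other hydrolases. It was -0.07 for the 25 transporters and channels, -0.07 for the 21 MiT/TFE partners and -0.01 for the 25 autophagy genes. The smallest p among the other pump subunits belonged to Atp6v0a1 at -0.29 (adjusted p 0.200) and among the other hydrolases to Pla2g15, a lysosomal phospholipase gene, at -0.39 (adjusted p 0.0646). Among the MiT/TFE partners it was Fnip2, which binds folliculin, at -0.79 (adjusted p 0.137), and among the autophagy genes Atg9a at 0.28 (adjusted p 0.252). None of these 4 passed.

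Markers of cell types known for high lysosomal activity were examined in the same fit. Of 16 resident macrophage markers, 4 fell and 0 rose within pairs, C1qb, C1qc and Mertk among them, where 0.413% of all genes fell. Of the 16, 13 lay below 0 and 3 above, with a median of -0.55 overall and of -0.77, -0.59 and -0.11 in pairs 1, 2 and 3. The summed level of the 16 ran from 1115 to 1210 CPM in DEK and from 1258 to 1480 CPM in vehicle libraries, and 0 of the 16 were at 0 in all libraries. Mertk, a receptor for the uptake of dead cells, had 0.603, 0.276 and 1.87 CPM in DEK, against 2.66, 2.48 and 4.85 CPM in vehicle. Of 10 osteoclast markers, 8 were tested and 0 passed, with 3 below 0, 5 above and a median of 0.09. Calcr, the calcitonin receptor gene, was at 0 in all 6 libraries. The summed level ran from 490.2 to 2627 CPM in DEK and from 542.7 to 2105 CPM in vehicle, highest in replicate 3 of both groups. The list as a whole did not share this rise. Against replicates 1 and 2 of the same group, the median tested marker was 0.25 log2 units higher in DEK replicate 3. In vehicle replicate 3 it was 0.24 higher. In bulk RNA, fewer cells of a type and less RNA per cell cannot be told apart. The part of macrophages, or of the eosinophils described next, in the lower Mcoln3, Lgmn and Cd63 was not tested.

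For the other cell types, 2 of 10 monocyte markers rose (Ly6c2 and Cx3cr1) and 0 fell within pairs, where 0.869% of all genes rose. Of these 10, 7 lay above 0 and 3 below, with a median of 0.21. Of 9 neutrophil markers in the table, 1 rose (Lcn2) and 0 fell, with 5 above 0, 4 below and a median of 0.09. Of 10 eosinophil markers, 2 fell (Epx and Prg3), where 0.413% of all genes fell. All 10 were lower in DEK in 3 of 3 pairs, where 17.9% of all genes were, and their median within pairs was -0.49. None of the tested markers of dendritic cells, basophils and mast cells, megakaryocytes, erythroid cells, B cells, T cells or stem and progenitor cells passed within pairs. Summed monocyte markers ran from 6752 to 8890 CPM in DEK and from 5756 to 7846 CPM in vehicle libraries. Summed eosinophil markers ran from 3633 to 11489 CPM in DEK and from 5021 to 14716 CPM in vehicle, lowest in replicate 3 of both groups. Lineage depletion is meant to remove mature cells that carry lineage surface markers. The 6 tested T cell markers summed to 36.1 to 43.1 CPM in DEK and 41.8 to 44.9 CPM in vehicle. Summed neutrophil markers ran from 5977 to 61939 CPM in DEK and from 6244 to 65350 CPM in vehicle. How complete the depletion was, was not tested.

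Over the 6 libraries, the genes of the table whose log2 CPM followed Mcoln3 most closely were Pmp22, Enpp1, P2ry1, Klf10, Fam198b, Lonrf3, Thbd, Dnase1l1, Tdrkh and Rpgrip1. They were the 10 highest Pearson correlations among genes averaging at least 1 CPM, from 0.953 to 0.987. These 6 points share their group labels and replicate numbers, so the values are a description. Pmp22, a gene for a membrane protein of peripheral myelin, had 2.08, 1.596 and 1.46 CPM in DEK, against 9.79, 10.03 and 7.08 CPM in vehicle, and Fam198b had 3.68, 2.27 and 1.85 CPM in DEK, against 13.3, 15.2 and 6.10 CPM in vehicle. Both show the wide separation of groups seen for Mcoln3, at 5.24-fold and 4.33-fold lower in DEK within pairs. The rest of the 10 were lower by less, from 1.19-fold (Dnase1l1) to 1.95-fold (Enpp1). Picking genes by correlation with Mcoln3 favours genes whose groups lie apart. Among the other 39 lysosomal genes, the highest correlations with Mcoln3 were 0.93 for Cd63, 0.90 for Tpp1 and 0.87 for Lgmn.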

How the data were processed

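Read counts per gene were deposited by the authors, and per the file headers they were made with featureCounts 1.6.1 over mm10 exons grouped by gene, from lane 6, with no strand and no paired-read option. The submitters' processing notes name Trim Galore, STAR, HTSeq and edgeR, with no versions. Exon lengths (another unit, in bases) are those the authors' table gives. Values of 5 of the 40 genes, which share exon bases with another gene, are uncertain. Counting ignored strand although the library kit keeps it, which matters where the other gene is on the opposite strand. For Glb1 the other gene is on the same strand.

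The counts were analysed in R 4.3.3 with edgeR 4.0.16 (quasi-likelihood test, robust, two-sided), TMM scaling and the filterByExpr filter. Of 18049 genes with a read, 13803 were tested, with Benjamini-Hochberg adjustment over all of them and a threshold of 0.05. A prior count of 2 was added for log2 CPM. DESeq2 1.42.0 and limma 3.58.1 were alternatives. The procedure was run on simulated data, whose spread came from the same fits, so that run does not test the matching of replicate numbers. Precision follows depth, which ran from 34875736 to 49128378 counts per library; Mcoln3 rests on the fewest counts.

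Groups and replicate numbers come from the sample titles. The replicate block was the alternative to the fit without it. Deviations from group means correlated by 0.55, 0.56 and 0.80 across genes for equal numbers 1, 2 and 3, all above the 0.1 required, so the numbers were taken as pairs. For unequal numbers 1 and 2 the correlations were 0.52 and 0.41, which also pass 0.1, so these 2 numbers are weakly told apart. Replicate 3 stood apart in both groups, which by itself makes the other deviations similar. The rule therefore cannot decide which libraries numbered 1 and 2 belong together. The common biological coefficient of variation came to 33.1% unpaired and 13.1% within pairs.

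The 40 genes, the other lysosome lists and the cell type marker lists were chosen with earlier results of these data known. Of the symbols in the marker lists, 3 had no row in the table used here. Genes given with values in every library are the mucolipins, the MiT/TFE factors, every called gene of the 40, the 2 smallest p within pairs in each other role and the called gene of the further lysosome lists. The smallest p of each other list is given with its fold change. Ctsk, Mertk and the values of 2 of the 10 genes most like Mcoln3 were chosen after their values were seen. The series' design text also names lineage-positive cells, which were not analysed here. Called marker genes are listed without values other than those of Mertk, and 1 of them is not reported here.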

Additional observations from a re-analysis of the deposited data

How the results depend on the processing

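Mcoln3 had the lowest log2 fold change of the 40 genes under each of the 19 alternatives, from -2.93 to -2.33, with adjusted p from 2.03e-18 to 1.00. Numbers of called genes depended on the processing. Ignoring the numbers, edgeR called 0 of the 40, 0 of 118 in the further lysosome lists and 0 of all genes. With the replicate block, that is within pairs, it called 3, 1 and 177; with DESeq2 1, 1 and 58; with the block and no filter on low counts 7, 2 and 349; with the block in DESeq2 9, 3 and 347. With both libraries numbered 3 left out, chosen after seeing the data, it called 7, 2 and 168. Leaving out 1 library gave 0 of the 40 and 0 to 1 of all genes. Leaving out 1 pair within pairs gave 0 to 11 of the 40, 0 to 9 in the further lists and 0 to 641 of all genes (181 without pair 1), from fits with 2 pairs and so little left to estimate the spread that their very small p are unreliable. Limma-voom, RLE scaling, library totals without TMM, totals without Rn45s and no filter called 0 of the 40. The log2 fold change of Tfeb, near 0, changed sign: it was -0.019 without the libraries numbered 3, -0.031 to 0.130 on leaving out 1 library, and within pairs -0.0055 without pair 2, -0.027 without pair 3 and up to 0.102 without pair 1. The median of the 40 genes stayed below 0, from -0.22 to -0.06. The full CLEAR element matched 0% of the promoter windows. The causes of these differences were not tested.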

Other observations

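Some library features touch the lysosomal values without belonging to a comparison. Rn45s, the ribosomal RNA precursor gene, took 4.89% of the counts in vehicle replicate 1, against 0.159% to 0.331% in the other 5 libraries. With Rn45s left out of the library totals, edgeR ignoring the numbers called 0 of the 40 genes. Ctsk was 2.12 log2 units higher in DEK replicate 3 than in DEK replicates 1 and 2, and 0.78 higher in vehicle replicate 3 than in vehicle replicates 1 and 2. Atp6v0d2 was likewise 1.33 log2 units higher in DEK replicate 3 and 1.84 higher in vehicle replicate 3. For Ctsd the same difference was 0.60 in the DEK group and -0.24 in the vehicle group.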
